A study of Homo sapiens with 2 samples.

Results

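The genes described here encode the proteasome, its activators, its inhibitor and the chaperones that assemble it. The rule reads gene symbols and no measured value: it takes every gene of the deposited matrix named PSMA, PSMB, PSMC, PSMD, PSME, PSMF or PSMG with a number, except PSMB8 and PSMB9. The rule took 46 of 33694 genes. Their transcripts were counted in single cells of 3 edited lines. HMLER is a line of human breast epithelial cells that were made immortal and then transformed with oncogenic RAS, and C1 cells are an epithelial derivative of it. C1-sgControl carries a control guide, C1-sgEED a knockout of EED, a subunit of the Polycomb complex PRC2, and C1-sgKMT2D a knockout of KMT2D, a histone methyltransferase of enhancers. The design asks whether either loss makes these epithelial cells able to become mesenchymal. The lines were grown in a medium with insulin, EGF and hydrocortisone, stained with hashtag antibodies, pooled and read as 1 gene expression library. The titles call the cells mixed clones without giving the number of clones in a line. Another hashtag, number 2, was also read, has no line in the labels and enters no comparison between lines.

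The proteasome is the protease that degrades ubiquitin-tagged proteins. Its 20S core stacks rings of alpha subunits (PSMA), which form the gate, on rings of beta subunits (PSMB), of which PSMB5, PSMB6 and PSMB7 cut the substrate. The 19S cap has a base, where the ATPases (PSMC) unfold the substrate. The base also holds PSMD1, PSMD2 and PSMD4, of which PSMD2 and PSMD4 bind ubiquitin or its carriers. The lid is made of other PSMD subunits, and there PSMD14 removes the ubiquitin. PSMG proteins assemble the core, PSMD5, PSMD9 and PSMD10 assemble the base, PSMF1 inhibits the core, and PSME1 with PSME2, PSME3 and PSME4 form caps that need no ATP. Under interferon, PSMB8, PSMB9 and PSMB10 replace the cutting subunits, which gives the immunoproteasome. The rule thus also holds genes that are not constitutive: PSMB10, the interferon-inducible PSME1 and PSME2, the thymic PSMB11 and the testis gene PSMA8. The label therefore covers most of the set and not all of it.

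Each line is 1 sample, so no difference below has a replicate check and no test across samples was possible. Of 10336 barcodes, 9193 passed the cell filter and 6406 of them carried a single hashtag of the 3 lines: 1720 of the control line, 2338 of the EED knockout and 2348 of the KMT2D knockout. The filter removed 27.2%, 6.78% and 5.89% of their barcodes. The lines held 9927122, 10256770 and 13957344 gene UMIs (unique molecules), with medians of 5672.5, 3915 and 5526 UMIs per cell. EED itself was read at 13.6, 13.4 and 15.3 CPM and KMT2D at 4.63, 3.02 and 5.02 CPM in these lines in that order, so neither transcript was lower in its own knockout over all cells beyond counting error. By the states defined below, EED in C1-sgEED was at 20.1 CPM (16.5 to 24.2) in KRT17-rich cells, against 13.4 CPM (11.1 to 15.9) in those of C1-sgControl, and at 5.74 CPM (3.78 to 8.36) in VIM-rich cells. KMT2D in C1-sgKMT2D was at 5.03 CPM in KRT17-rich and 5.11 CPM in VIM-rich cells. A 3' tag does not show a small edit, and these levels check the labels little.

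Cells were also split by 2 genes that are no members: KRT17-rich cells have more UMIs of KRT17, a basal keratin, than of VIM, and VIM-rich cells have more of VIM, the mesenchymal intermediate filament. These are ranges of a score and not cell types, and 441 cells of the control, 502 of the EED knockout and 894 of the KMT2D knockout lie near the bound, with a VIM share of 0.25 to 0.75. C1-sgControl had 1633 KRT17-rich and 71 VIM-rich cells, C1-sgEED 1111 and 1195, and C1-sgKMT2D 1157 and 1164. Markers outside the rule followed the split in both knockouts. The 9 other epithelial markers summed to 7997 CPM in KRT17-rich and 1747 CPM in VIM-rich C1-sgEED cells and to 9245 and 2301 CPM in C1-sgKMT2D. The 10 mesenchymal markers other than VIM split less, with 2052 and 3803 CPM in C1-sgEED and 1502 and 2936 CPM in C1-sgKMT2D. KRT17-rich C1-sgControl cells had 2553 CPM of them, more than those of either knockout. Among these markers the transcription factor ZEB1 was at 0.552 and 37.4 CPM in C1-sgEED and at 1.51 and 19.1 CPM in C1-sgKMT2D. The 71 VIM-rich C1-sgControl cells had no UMI of ZEB1 or COL3A1 and 6345 CPM of the 9 epithelial markers, so they are not mesenchymal by these markers and enter no comparison. PTPRC, CD3E and LYZ, markers of immune cells, were at 0 in all 3 lines, and CD68 had 151 to 214 UMIs in each.

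Levels are counts per 1000000 gene UMIs (CPM) of the summed cells, with exact Poisson 95% intervals. Ratios have exact conditional binomial 95% intervals. Both cover counting error only. A 3' assay reads 1 tag per transcript, so transcript length does not enter a comparison of levels between genes. Of the 46 genes, 43 reached 10 CPM in at least 1 line and are called measured, and 37 reached 50 CPM. Together they gave 0.685% of all gene UMIs of the control, 0.835% of the EED knockout and 0.738% of the KMT2D knockout. Where 3 values are given below without a name they are in this order.

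The highest level of all belonged to PSMA7 (chromosome 20, 62136735 to 62143440, minus strand), an alpha subunit, with 1237, 1425 and 1302 CPM. The lowest measured alpha gene was PSMA6 at 11.1, 11.3 and 10.96 CPM, although both proteins sit in the same ring in equal number. PSMA6 shares 919 of its 6506 exon bases with another gene of the same strand, and whether that lowers its count was not tested. In the beta ring PSMB1 was highest at 459, 557 and 553 CPM, and the immunoproteasome gene PSMB10 was at 2.92, 4.09 and 2.87 CPM, under the 10 CPM limit in every line. PSMB10 shares 644 of 1853 exon bases with a neighbour on its strand, and the part of this in its low count was not tested either. PSMA8 had 1 UMI in C1-sgEED and none in C1-sgControl and C1-sgKMT2D, which allows up to 0.302 and 0.215 CPM. PSMB11 had no UMI in the 3 lines, which allows up to 0.302, 0.292 and 0.215 CPM in the same order.

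In the 19S cap the ATPases and the other PSMD subunits lay closer together than the alpha ring. Among the ATPases PSMC5 was highest, at 143, 207 and 146 CPM, and PSMC2 lowest, at 53.8, 74.9 and 54.5 CPM. Among the non-ATPases PSMD8, a lid subunit, was highest at 323, 406 and 341 CPM, and PSMD6, another lid subunit, lowest at 65.5, 86.4 and 70.9 CPM. The base chaperones were all low: PSMD10 had 24.8, 21.5 and 18.3 CPM, PSMD5 14.6, 14.1 and 15.5 CPM, and PSMD9 10.5, 11.4 and 8.38 CPM. The core chaperones stood between 43.4 CPM (PSMG2 in C1-sgControl) and 94.8 CPM (PSMG1 in C1-sgEED). PSME2 led the activators at 178, 187 and 137 CPM, and PSME3 and PSME4, the nuclear caps, were the lowest of them at 28.9 to 39.0 CPM. The inhibitor PSMF1 was at 111, 107 and 114 CPM. The plot of levels shows how narrow the range within a gene is beside the range between genes.

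**Figure D1:**
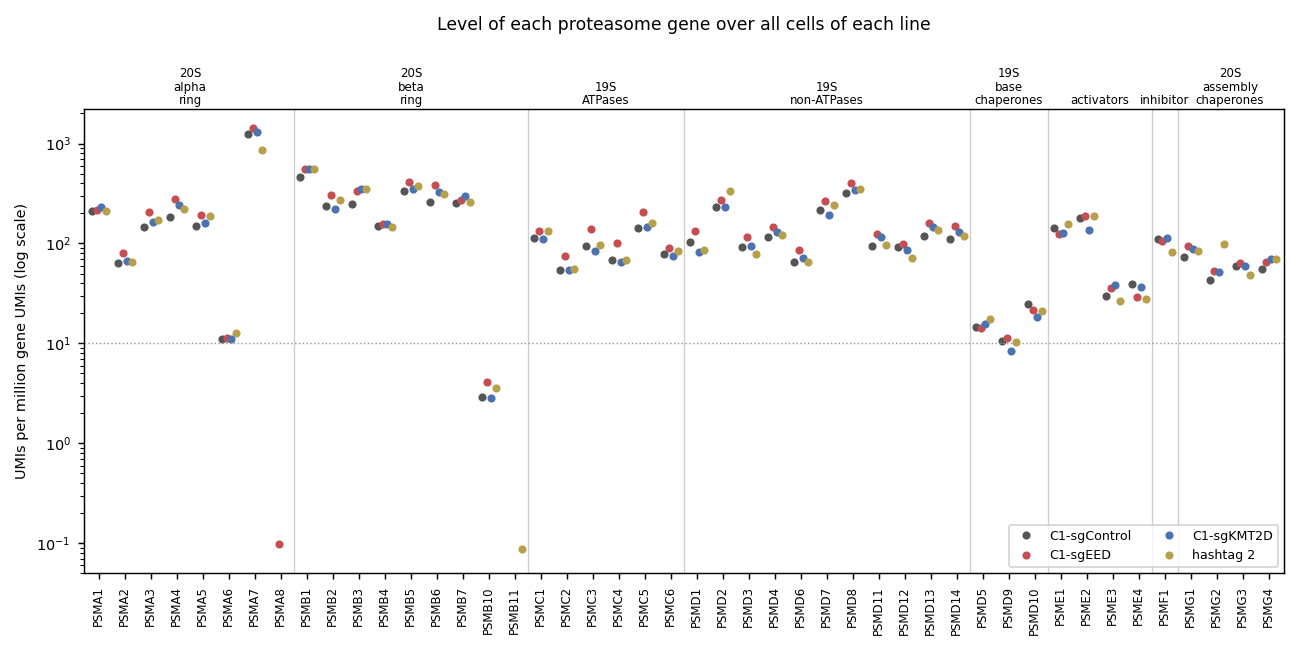
Level of each gene in CPM on a log axis (vertical), by gene in order of subcomplex (horizontal), over all cells of the control, both knockouts and hashtag 2. A level of 0 has no point, the dotted line is the 10 CPM limit, and PSMA7 stands above 1000 CPM in the 3 lines while PSMA8, PSMB10 and PSMB11 stay under the limit.

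Most proteasome genes had a higher level in C1-sgEED than in C1-sgControl. Over all cells the summed level was 6850.2 CPM in C1-sgControl and 8352 CPM in C1-sgEED, a ratio of 1.22 (1.21 to 1.23), and 38 of the 43 measured members were above 1. Their median log2 ratio was 0.30, against 0.09 over all 8026 measured genes. Over the 2825 genes of at least 50 CPM, a level that 37 of the 43 members reach, it was 0.15. The excess was spread thinly: 1 member was at least 1.5-fold higher and 0 were lower, where 10.9% of all measured genes were higher and 7.92% lower by that fold. That member is PSMA4 (chromosome 15, 78540405 to 78552419, plus strand), an alpha subunit, at 184 CPM in C1-sgControl and 278 CPM in C1-sgEED, or 1.51-fold higher (1.42 to 1.60). It passed 1.5-fold in 2 of 8 other settings, with log2 ratios from 0.42 to 0.67. The ATPase PSMC4 followed at 68.0 and 102.0 CPM, a ratio of 1.4998 (1.36 to 1.65). The catalytic subunit PSMB6 followed at 260.5 and 382 CPM, a ratio of 1.47 (1.39 to 1.54). The lowest ratios belonged to PSME4 at 39.0 and 28.9 CPM (0.740; 0.634 to 0.863), PSME1 at 144 and 123 CPM (0.852; 0.790 to 0.920) and the base chaperone PSMD10 at 24.8 and 21.5 CPM (0.870; 0.722 to 1.05). In the PSMD10 case the interval includes 1.

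The lines also differed in cell cycle transcripts and in depth. With 1 sample per line, whether this follows from the edit cannot be told. A UMI of at least 1 of 5 cell cycle genes was found in 41.3%, 63.7% and 61.2% of the cells, at the different median depths given above. Over cells with no such UMI the log2 ratio of the summed level was 0.23 for C1-sgEED over C1-sgControl, against 0.29 over all cells. It was 0.08 against 0.11 for C1-sgKMT2D over C1-sgControl.

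Of the 2338 C1-sgEED cells 1195 are VIM-rich, so the KRT17-rich cells of both lines were also compared. There the members summed to 6806 CPM in C1-sgControl and 7876 CPM in C1-sgEED, a ratio of 1.16 (1.14 to 1.17). Of the 43 measured members 34 were above 1, with a median log2 ratio of 0.21 against 0.07 over all genes, and 0 passed 1.5-fold in either direction (7.5% of all genes were higher and 4.75% lower). The median over genes of at least 50 CPM was 0.10. The beta ring had the highest ratio of the subcomplexes, at 1939 and 2391 CPM or 1.23 (1.21 to 1.26). The non-ATPases followed at 1.18 (1.15 to 1.21), the core chaperones at 1.17 (1.10 to 1.25), the alpha ring at 1.14 (1.12 to 1.17) and the ATPases at 1.11 (1.06 to 1.16). The activators were at 0.904 (0.855 to 0.956), and the intervals of PSMF1 (0.976; 0.881 to 1.08) and of the base chaperones (1.00; 0.860 to 1.17) include 1. The 3 highest members were PSMB6 at 262 and 379 CPM (1.45; 1.37 to 1.54), PSMA4 at 183 and 261 CPM (1.43; 1.33 to 1.53) and PSMB3 at 246 and 343 CPM (1.39; 1.31 to 1.48). All 3 are core subunits. The 3 lowest were the activators PSME1 at 145 and 122 CPM (0.841; 0.766 to 0.924), PSME2 at 179 and 163 CPM (0.912; 0.840 to 0.990) and PSME4 at 39.0 and 35.5 CPM (0.911; 0.761 to 1.09).

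C1-sgKMT2D is compared with the same control cells, so its ratios share that denominator with those of C1-sgEED. Over all cells the members summed to 7381 CPM against 6850.2 CPM, a ratio of 1.08 (1.07 to 1.09), with 27 of 43 above 1, a median log2 ratio of 0.07 (all genes -0.02) and 0 past 1.5-fold (7.3% of all genes higher, 13.6% lower). Genes of at least 50 CPM had a median of 0.04, closer to that of the members. PSMB3, PSMA4 and PSMB6 were again the highest, at 1.42 (1.35 to 1.49), 1.33 (1.26 to 1.41) and 1.27 (1.21 to 1.33). The lowest were PSMD10 at 0.740 (0.619 to 0.885), PSME2 at 0.767 (0.719 to 0.819) and the base subunit PSMD1 at 0.797 (0.732 to 0.867).

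In KRT17-rich cells C1-sgKMT2D had higher levels of core subunits and lower levels of the interferon-inducible activators than C1-sgControl. The members summed to 7658 against 6806 CPM, a ratio of 1.13 (1.11 to 1.14), and 31 of 43 were above 1 with a median log2 ratio of 0.12 against -0.03 over all genes. Genes of at least 50 CPM had a median of 0.04. The beta ring was at 1.23 (1.20 to 1.25) and the alpha ring at 1.16 (1.14 to 1.19). The ATPases, at 545 and 536 CPM, did not differ beyond counting error (0.982; 0.943 to 1.02). The activators were at 0.791 (0.751 to 0.833). 1 member passed 1.5-fold upwards and 0 downwards, where 6.12% of all genes were higher and 13% lower. It is PSMB3 (chromosome 17, 38752736 to 38764231, plus strand), a structural beta subunit, at 246 and 371 CPM or 1.51-fold (1.43 to 1.59), which stayed past 1.5-fold in 5 of 9 other settings (log2 0.54 to 0.64). PSME3, the nuclear cap, was at 28.6 and 41.8 CPM (1.46; 1.24 to 1.72) and PSMA4 at 183 and 257 CPM (1.41; 1.32 to 1.504). At the other end PSME2 was at 179 and 122 CPM (0.684; 0.632 to 0.741), PSME1 at 145 and 101 CPM (0.698; 0.639 to 0.762) and PSMD1 at 103 and 81.1 CPM (0.787; 0.712 to 0.871). PSMD7, a lid subunit on chromosome 16, had a log2 ratio of -0.06, while the 335 measured genes of chromosome 16 had a median of -0.65 in this comparison and 93.1% of them were below 0.

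**Figure D2:**
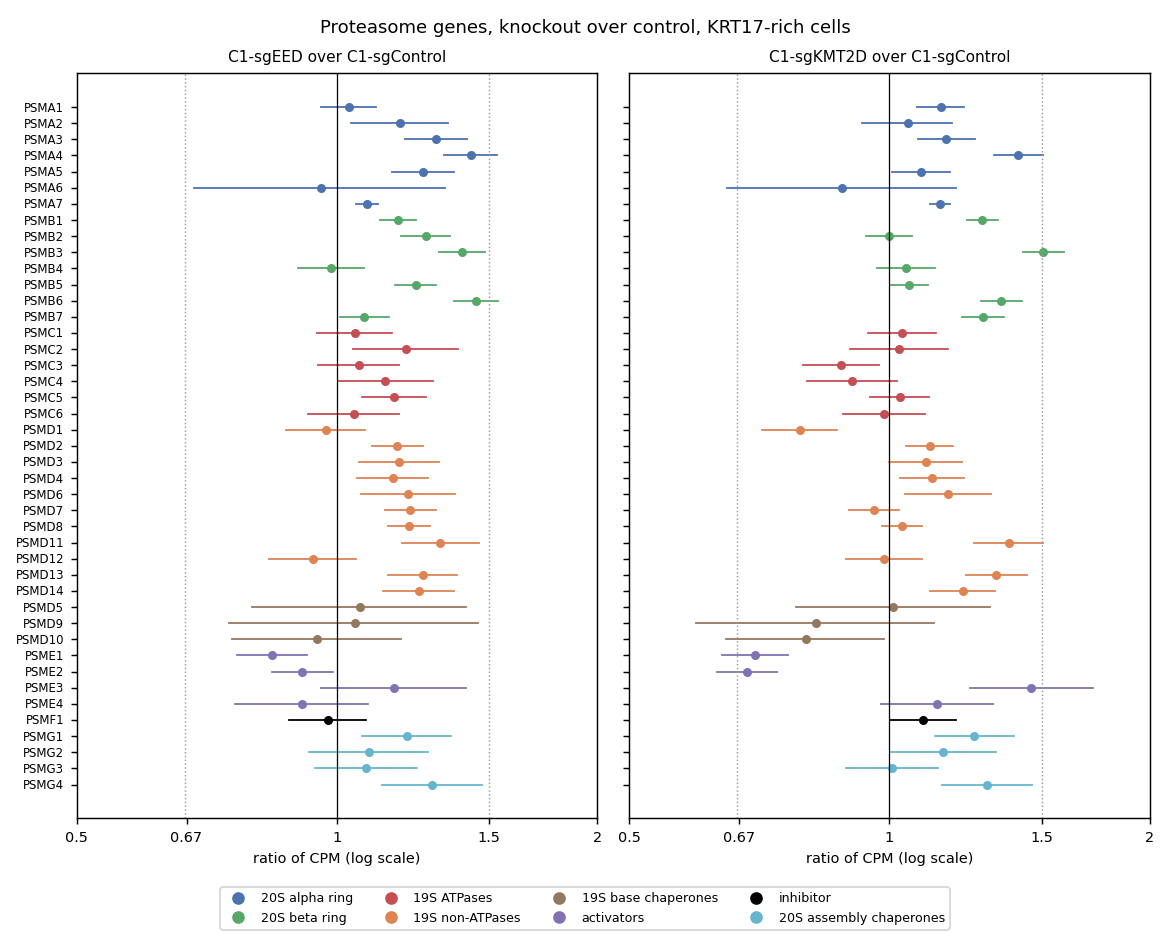
Ratio of the level in each knockout to that in C1-sgControl over KRT17-rich cells, on a log axis (horizontal), for each of the 43 measured genes (vertical), coloured by subcomplex. Bars are 95% intervals of counting error, dotted lines mark 1.5-fold, and the core subunits PSMB3, PSMB6 and PSMA4 lie near 1.5 in C1-sgEED and PSME1 and PSME2 near 0.7 in C1-sgKMT2D.

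Within C1-sgEED, VIM-rich cells had more transcripts of the 19S ATPases and of PSMD1 than KRT17-rich cells, while the beta ring was close to even. The 6 ATPases summed to 603 CPM in KRT17-rich and 915 CPM in VIM-rich cells, a ratio of 1.52 (1.45 to 1.59), and all 6 had intervals above 1. Such an interval was found for 25 of the 43 measured members and for 25.8% of all 8026 measured genes. This is not like for like, because intervals narrow with the count. Of the members 37 reach 50 CPM, against 2825 of all measured genes. The beta ring was at 2391 and 2471 CPM, or 1.03 (1.01 to 1.06), and the alpha ring at 2271 and 2571 CPM, or 1.13 (1.10 to 1.16). With PSMD1, PSMD2 and PSMD4 added, the 19S base reached 1.38 (1.33 to 1.43) and the lid 1.13 (1.09 to 1.17). The base was not uniform, since PSMD4 was at 1.19 (1.08 to 1.32) and PSMD2 was even at 1.02 (0.943 to 1.10). The lid subunit PSMD12 was at 1.37 (1.21 to 1.56). The summed level of all members was 7876 and 8894 CPM, a ratio of 1.13 (1.11 to 1.14), with 35 of 43 above 1 and a median log2 ratio of 0.16 against 0.01 over all genes. Genes of at least 50 CPM had a median of 0.04.

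By gene, 4 members were at least 1.5-fold higher (background 11.1%) and 1 was lower (background 14.1%). These are 9.30% and 2.33% of the measured members, no more than over all genes. PSMC3 (chromosome 11, 47418769 to 47426473, minus strand) was at 99.8 CPM in KRT17-rich and 184 CPM in VIM-rich cells, 1.85-fold higher (1.66 to 2.06). PSMC4 (chromosome 19, 39971005 to 39981441, plus strand) was at 76.2 and 133 CPM, 1.74-fold higher (1.53 to 1.97). PSMC5 (chromosome 17, 63827152 to 63832026, plus strand) was at 165 and 257 CPM, 1.56-fold higher (1.43 to 1.70). These are 3 of the 6 ATPases that form the unfolding ring. PSMD1 (chromosome 2, 231056864 to 231172827, plus strand), a scaffold subunit of the base, was at 99.96 and 174 CPM, 1.74-fold higher (1.56 to 1.95). The remaining ATPases, named to complete the ring, were PSMC2 at 63.7 and 87.8 CPM (1.38; 1.19 to 1.60), PSMC1 at 118 and 153 CPM (1.30; 1.17 to 1.45) and PSMC6 at 81.0 and 99.5 CPM (1.23; 1.08 to 1.40). The 4 genes past 1.5-fold lie on 4 chromosomes whose other genes had medians of -0.00, -0.03, -0.05 and 0.05 log2 in this comparison. Chromosome 5, on which no member lies, had a median of 0.36 over 393 genes, with 19.1% below 0. The states of C1-sgEED thus differ in the median over the genes of a chromosome. Positions along it were not examined, and whether the states are different clones was not tested. Among the 37 members of at least 50 CPM, 4 were higher and 0 lower (background at that level 10.5% and 10.8%). PSMC3, PSMC4 and PSMD1 stayed past 1.5-fold in 9 of 9 other settings, and PSMC5 in 7 of 9 (log2 0.53 to 0.74).

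The gene that was lower is PSME4 (chromosome 2, 53864067 to 53970840, minus strand), which encodes the nuclear cap PA200, at 35.5 and 21.3 CPM or 1.67-fold lower (1.31 to 2.15). Cells of at least 5000 UMIs had a log2 ratio of -0.37, which is under 1.5-fold, against -0.71 over all cells. The next lowest members were PSMG4, a core chaperone, at 71.6 and 57.6 CPM (0.805; 0.687 to 0.942), and PSMD5 at 15.1 and 13.0 CPM (0.859; 0.607 to 1.21). The interval of PSMD5 includes 1.

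The sequences just before the transcription starts of these 5 genes are shown because these are the members past 1.5-fold between the states of C1-sgEED, with PSME4 the lower one. Each line gives the 150 bases before the RefSeq start on the strand of the gene, from GRCh38.p14, 5' to 3'. Capitals mark matches to 3 motifs searched on both strands, the CCAAT box (CCAAT), an ETS core (CGGAAG) and the core of the antioxidant response element (TGANNNNGC), which NFE2L1 and NFE2L2 are known to read. The last motif searched, the YY1 core (AAGATGGC), whose end can overlap an ETS core, has no match in them. GENCODE 29 places the first base of PSMC3, PSMC4, PSMC5 and PSMD1 upstream of the RefSeq start used here. The windows are chr11:47426440-47426589 (minus strand) for PSMC3, chr19:39971015-39971164 (plus) for PSMC4, chr17:63827281-63827430 (plus) for PSMC5, chr2:231056717-231056866 (plus) for PSMD1 and chr2:53970994-53971143 (minus) for PSME4.
PSMC3: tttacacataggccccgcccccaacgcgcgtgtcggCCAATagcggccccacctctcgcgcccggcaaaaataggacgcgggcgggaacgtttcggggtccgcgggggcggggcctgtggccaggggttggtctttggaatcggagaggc
PSMC4: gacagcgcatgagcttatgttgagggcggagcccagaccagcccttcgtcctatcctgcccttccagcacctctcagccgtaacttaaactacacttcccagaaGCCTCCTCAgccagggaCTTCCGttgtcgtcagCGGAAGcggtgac
PSMC5: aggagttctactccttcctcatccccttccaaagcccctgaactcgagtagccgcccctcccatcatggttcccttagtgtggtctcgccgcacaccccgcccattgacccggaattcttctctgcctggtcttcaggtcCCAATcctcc
PSMD1: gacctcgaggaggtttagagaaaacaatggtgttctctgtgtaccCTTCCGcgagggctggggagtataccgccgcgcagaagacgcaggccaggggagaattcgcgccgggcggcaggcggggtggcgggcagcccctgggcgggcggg
PSME4: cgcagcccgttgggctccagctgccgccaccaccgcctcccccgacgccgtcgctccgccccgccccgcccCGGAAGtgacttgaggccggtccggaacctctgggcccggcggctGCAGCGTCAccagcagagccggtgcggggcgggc
Of the 4 genes that were higher, PSMC3 and PSMC5 have a CCAAT box in this window, PSMC4 and PSMD1 an ETS core, and PSMC4 an antioxidant response core. PSME4 has an ETS core and an antioxidant response core. In the full 300 bases the antioxidant response core is also in PSMC3 and PSMD1, and the ETS core also in PSMC5. These matches are letters in a window and not shown to be sites. Over the same 300 bases of the RefSeq table, 40 of the 46 members were matched, and 22 of them (55%) hold an ETS core against 19.5% of 35116 promoters. The antioxidant response core was in 24 (60%, against 41.8%), the CCAAT box in 18 (45%, against 34.6%) and the YY1 core in 4 (10%, against 2.89%). Only the first listed promoter of a member was read. The 35116 hold every listed promoter of a gene and were not limited to expressed or protein-coding genes. The shares are thus not like for like, and no excess particular to the members was tested.

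Within C1-sgKMT2D the same split gave another picture: VIM-rich cells had lower levels of most core and lid genes, and the ATPases were even. All members summed to 7658 CPM in KRT17-rich and 7003 CPM in VIM-rich cells, a ratio of 0.915 (0.903 to 0.926), with 14 of 43 above 1 and a median log2 ratio of -0.11 (all genes -0.00). Genes of at least 50 CPM had a median of -0.02. The ATPases were at 536 and 535 CPM (0.999; 0.954 to 1.05). The alpha ring was at 0.868 (0.848 to 0.888) and the beta ring at 0.894 (0.874 to 0.914), with PSMA7 at 1407 and 1159 CPM (0.824; 0.799 to 0.849). PSMC3 was at 82.8 and 83.6 CPM, PSMC5 at 146 and 147 CPM and PSMD1 at 81.1 and 85.1 CPM, each even within counting error. PSMC4 was at 60.6 and 71.2 CPM, a ratio of 1.17 (1.03 to 1.34).

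In the same comparison 1 member was at least 1.5-fold higher (background 6.38%) and 1 was lower (background 7.69%). The higher one was PSME1 (chromosome 14, 24136158 to 24138967, plus strand), a subunit of the interferon-inducible cap, at 101 CPM in KRT17-rich and 162 CPM in VIM-rich cells, or 1.59-fold (1.45 to 1.75). In cells of at least 5000 UMIs its log2 ratio was 0.57, just under 1.5-fold. Its partner PSME2 followed at 122 and 156 CPM (1.28; 1.17 to 1.40), with PSMA6 at 9.81 and 12.3 CPM (1.25; 0.894 to 1.74). The lower one was PSME4 at 44.3 and 26.9 CPM, 1.65-fold lower (1.36 to 2.00), with a log2 ratio of -0.44 in cells of at least 5000 UMIs. Among members of at least 50 CPM 1 was higher and 0 were lower (background 5.45% and 7.22%). PSME3 was at 41.8 and 33.0 CPM (0.791; 0.659 to 0.947) and PSMD2, a base subunit, at 254 and 206 CPM (0.811; 0.755 to 0.872).

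**Figure D3:**
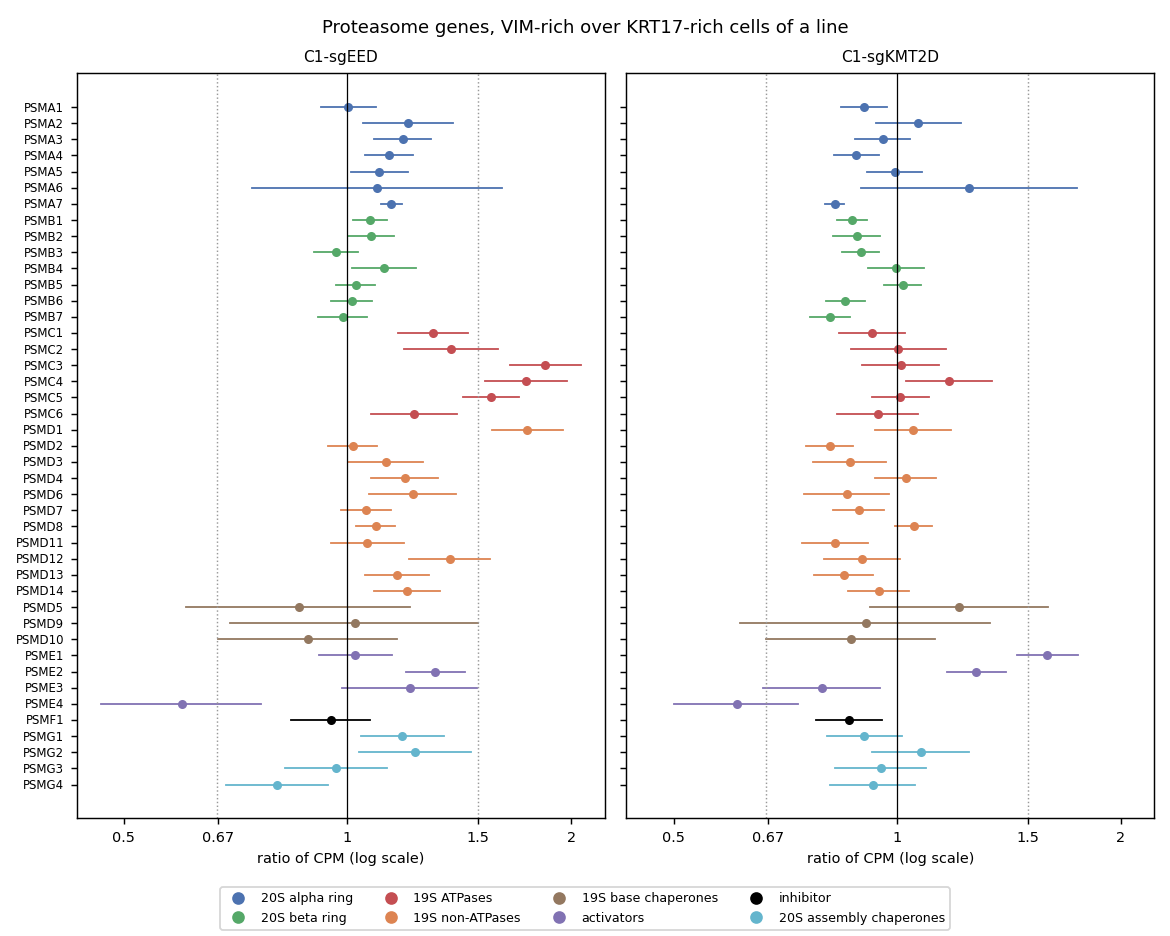
Ratio of the level in VIM-rich to that in KRT17-rich cells of C1-sgEED and of C1-sgKMT2D, on a log axis (horizontal), for each of the 43 measured genes (vertical), coloured by subcomplex. Bars are 95% intervals of counting error, dotted lines mark 1.5-fold, and PSMC3, PSMC4, PSMC5 and PSMD1 are past 1.5 in C1-sgEED and near 1 in C1-sgKMT2D, while PSME4 is low in both.

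The difference between the lines in this effect was larger than counting error for most members. Dividing the ratio of C1-sgEED by that of C1-sgKMT2D gave an interval (normal, on the log scale) above 1 for 25 of 43 measured members, or 58.1%, and below 1 for 1, PSME1. Over 8011 genes with UMIs in all 4 groups, 18.9% were above and 17.4% below. These shares are not like for like, because an interval narrows with the count of a gene. Of the 43 measured members 37 reach 50 CPM, against 2825 of the 8026 measured genes. For the ATPases the quotients were 1.83 (1.56 to 2.14) for PSMC3, 1.54 (1.36 to 1.75) for PSMC5, 1.48 (1.24 to 1.77) for PSMC4 and 1.38 (1.12 to 1.69) for PSMC2. PSMD1 had 1.66 (1.42 to 1.95). PSME4 had 0.985 (0.726 to 1.34), so its lower level in VIM-rich cells did not differ between the lines beyond counting error. The unlabelled hashtag 2 cells had 0 of 43 members past 1.5-fold in either direction between the same states (background 6.03% higher and 6.53% lower). With 1 sample per line these intervals say nothing of the spread between cultures or clones.

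The split is at an arbitrary bound, so the levels were also followed over 5 bins of the VIM share, in cells with at least 10 UMIs of KRT17 and VIM together. In C1-sgEED the ATPases were at 573, 658, 673, 760 and 954 CPM from the lowest to the highest share, while the beta ring ranged from 2370 to 2529 CPM. In C1-sgKMT2D the ATPases were at 505, 554, 572, 573 and 507 CPM. C1-sgControl has cells in number only in the lower 3 bins, where the ATPases were at 514, 590 and 661 CPM. The share of cells with a cycle gene UMI moved with these bins in part, with 33.5%, 51.6% and 71.96% in the 3 bins of C1-sgControl and 52.8%, 66.98%, 73.9%, 58.7% and 69.6% in the 5 bins of C1-sgEED. In C1-sgEED cells with no cycle gene UMI the log2 ratio of the ATPases between VIM-rich and KRT17-rich cells was 0.61, against 0.60 over all cells.

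**Figure D4:**
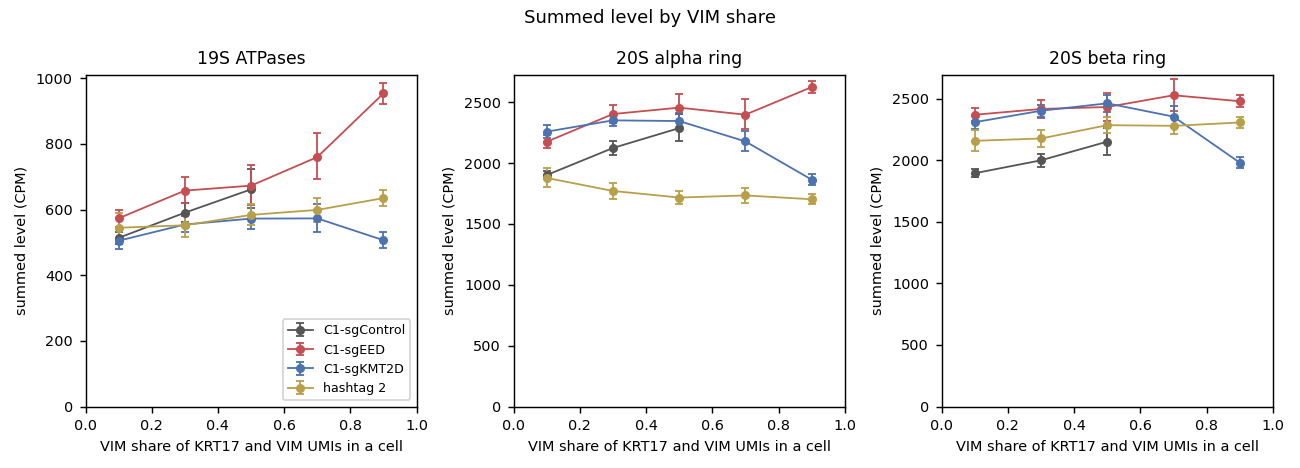
Summed level in CPM (vertical, from 0) of the ATPases, the alpha ring and the beta ring by the share of VIM among KRT17 and VIM UMIs of a cell (horizontal, middle of each of 5 bins), for bins of at least 50 cells. Bars are 95% intervals of counting error, and in C1-sgEED the ATPases go from 573 to 954 CPM while its beta ring stays between 2370 and 2529 CPM.

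Depth differs between the states, since median UMIs per cell were 4403 in KRT17-rich and 3478 in VIM-rich C1-sgEED cells, and 6716 and 4520 in C1-sgKMT2D. Within cells under 3000 UMIs the ATPases of C1-sgEED were at 498 CPM in KRT17-rich and 891 CPM in VIM-rich cells. Between 3000 and 6000 UMIs they were at 602 and 948 CPM, and from 6000 UMIs on at 621 and 859 CPM. The excess was thus present in each range of depth. In C1-sgKMT2D the pairs were 404 and 455, 508 and 503, and 548 and 584 CPM. Thinned to 2000 UMIs per cell, C1-sgEED cells had on average 1.15 ATPase UMIs when KRT17-rich (1057 cells, 54 shallower ones left out) and 1.83 when VIM-rich (1089 cells, 106 left out), and 33.3% and 16.4% of them had none. The KRT17-rich cells of C1-sgControl had 1.06 and those of C1-sgKMT2D 1.02 on average. For all members together in C1-sgKMT2D the levels in KRT17-rich and VIM-rich cells were 6387 and 5831 CPM under 3000 UMIs and 7634 and 6453 CPM from 3000 to 6000 UMIs. From 6000 UMIs on they were 7706 CPM (7637 to 7777) and 7783 CPM (7679 to 7889), so the lower level of VIM-rich cells was not seen in the deepest cells. In cells of at least 5000 UMIs the log2 ratio of VIM-rich to KRT17-rich cells was -0.05, against -0.13 over all cells.

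The VIM-rich cells of both knockouts, also differed from each other. The members summed to 8894 CPM with EED lost and 7003 CPM with KMT2D lost, a ratio of 0.787 (0.777 to 0.798) for C1-sgKMT2D over C1-sgEED, and 37 of 43 were below 1. The median log2 ratio was -0.35, where the median of all genes was itself -0.11 and that of genes of at least 50 CPM was -0.15. By 1.5-fold, 7 members were lower (background 17.1%) and 0 higher (background 8.62%). These were PSMC3 at 184 and 83.6 CPM (2.20-fold lower; 1.97 to 2.47), PSMD1 at 174 and 85.1 CPM (2.05-fold lower; 1.83 to 2.29), PSMC4 at 133 and 71.2 CPM (1.86-fold lower; 1.64 to 2.11), PSMC5 at 257 and 147 CPM (1.75-fold lower; 1.60 to 1.91), PSMC2 at 87.8 and 54.5 CPM (1.61-fold lower; 1.39 to 1.87), PSMB2 at 317 and 205 CPM (1.55-fold lower; 1.43 to 1.67) and PSMD7 at 274 and 181 CPM (1.51-fold lower; 1.39 to 1.64). The 7 are 16.3% of the measured members, close to the share over all genes, so the count says nothing particular to them. By name, 5 of the 7 encode 19S base subunits. PSMD7 lies on chromosome 16, whose other measured genes had a median log2 ratio of -0.60, against -0.59 for PSMD7 itself. PSMC3, PSMC4, PSMC5 and PSMD1 stayed past 1.5-fold in 9 of 9 other settings, PSMB2 and PSMC2 in 6 and PSMD7 in 4. At the other end stood PSMD5 at 13.0 and 17.4 CPM (1.34; 0.965 to 1.87), PSME1 at 125 and 162 CPM (1.29; 1.16 to 1.43) and PSME4 at 21.3 and 26.9 CPM (1.26; 0.978 to 1.64).

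The interferon-inducible members followed a course of their own. PSME1 was at 145 CPM in KRT17-rich C1-sgControl cells, at 122 and 125 CPM in KRT17-rich and VIM-rich C1-sgEED cells, and at 101 and 162 CPM in those of C1-sgKMT2D. PSME2 was at 179, 163, 214, 122 and 156 CPM in the same order. The immunoproteasome subunits PSMB8 and PSMB9, which the rule leaves out, were at 72.8 and 39.4 CPM in C1-sgControl, and at 46.9 and 20.4 CPM in KRT17-rich C1-sgKMT2D cells, 1.55-fold (1.37 to 1.77) and 1.94-fold lower (1.60 to 2.34). In VIM-rich C1-sgKMT2D cells they were at 65.7 and 38.3 CPM. In C1-sgEED they were at 84.3 and 56.7 CPM in KRT17-rich and 79.97 and 57.9 CPM in VIM-rich cells. So in C1-sgKMT2D the 4 genes PSME1, PSME2, PSMB8 and PSMB9 were lowest in the KRT17-rich cells and near the control in the VIM-rich cells. The third immunoproteasome gene, PSMB10, had 19 to 29 UMIs in each of these 5 groups of cells, and the intervals of its levels overlap. Of 9 interferon-regulated genes listed beside them, 6 were measured. Their median log2 ratio was -0.61 for KRT17-rich C1-sgKMT2D over C1-sgControl cells, with 3 lower by 1.5-fold (13% of all genes), and 0.89 for VIM-rich over KRT17-rich C1-sgKMT2D cells, with 4 higher (6.38% of all genes). In C1-sgEED the same medians were 0.05 and 0.35.

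**Figure D5:**
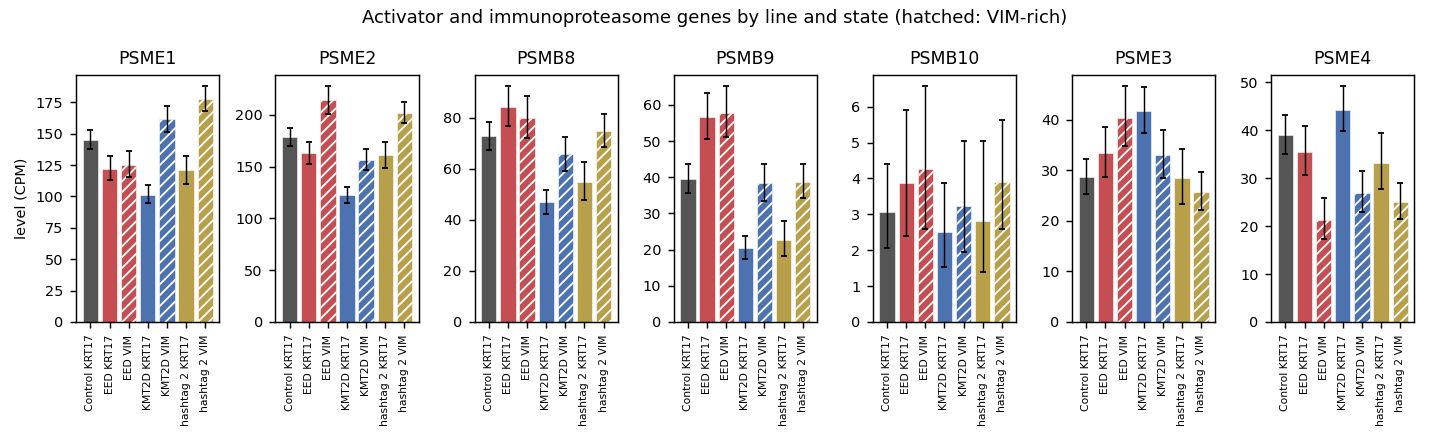
Level in CPM (vertical, from 0, a scale for each gene) of the activators PSME1 to PSME4 and of PSMB8, PSMB9 and PSMB10 in KRT17-rich (plain bars) and VIM-rich (hatched bars) cells of each line and of hashtag 2. Error bars are 95% intervals of counting error, and PSME1, PSME2, PSMB8 and PSMB9 are lowest in KRT17-rich C1-sgKMT2D cells.

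The rest of the pathway did not follow the ATPases as a whole. A list of 32 genes of accessory factors, regulators, ubiquitin, activating enzymes, shuttles, the VCP unfoldase and the immunoproteasome had 31 measured. Between VIM-rich and KRT17-rich C1-sgEED cells their median log2 ratio was 0.04, with 17 above 0 and 14 below, and 1 higher and 1 lower by 1.5-fold. Of the groups in the list the unfoldase had the highest median, at 0.48, but single genes of other groups were as high. VCP, which pulls ubiquitinated proteins out of complexes and membranes, was at 128 and 173 CPM (1.35; 1.22 to 1.497). Its cofactors were UFD1 (listed as UFD1L) at 116 and 163 CPM (1.40; 1.26 to 1.56) and NPLOC4 at 14.5 and 23.0 CPM (1.58; 1.17 to 2.14). Higher too were ADRM1, the ubiquitin receptor that docks on the base, at 133 and 188 CPM (1.42; 1.28 to 1.57), and POMP, which matures the core, at 500.2 and 677 CPM (1.35; 1.29 to 1.43). So were UBB (1.44; 1.36 to 1.52), TXNL1 (1.40; 1.26 to 1.56), NGLY1 (1.39; 1.05 to 1.84) and SQSTM1 (1.38; 1.21 to 1.57). The lowest of the measured list were ECPAS (listed as KIAA0368) at 0.623 (0.465 to 0.829) and ZFAND5 at 0.694 (0.582 to 0.825). In C1-sgKMT2D, ADRM1 was at 144 and 113 CPM and UFD1 at 123 and 94.8 CPM. The same ratio there was 0.988 (0.894 to 1.09) for VCP, 1.14 (0.876 to 1.48) for NPLOC4 and 0.922 (0.878 to 0.967) for POMP. It was 1.40 (1.33 to 1.48) for UBB, 1.62 (1.46 to 1.79) for SQSTM1, 0.995 (0.904 to 1.10) for TXNL1 and 0.847 (0.682 to 1.05) for NGLY1. NFE2L1, the transcription factor known to raise proteasome genes when degradation fails, was at 27.6 and 22.3 CPM in C1-sgEED (0.809; 0.624 to 1.04). NFE2L2 was at 71.98 and 75.3 CPM (1.05; 0.903 to 1.21). In KRT17-rich cells NFE2L1 was at 29.8 CPM in C1-sgControl and 17.4 CPM in C1-sgKMT2D, a ratio of 0.583 (0.472 to 0.717). Between C1-sgEED and C1-sgControl in KRT17-rich cells the median of the list was 0.07, the same as that of all genes, with 0 higher and 1 lower by 1.5-fold. The medians were -0.00 for C1-sgKMT2D over C1-sgControl in these cells, -0.02 for VIM-rich over KRT17-rich C1-sgKMT2D cells and -0.09 for C1-sgKMT2D over C1-sgEED in VIM-rich cells.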

How the data were processed

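Gene and hashtag UMI counts were deposited as whole numbers, which per the file headers are the output of Cell Ranger 3.0.2, on GRCh38 (per the submitters' processing notes). Cells were stained with hashtag antibodies and pooled before a 3' library was made, per the labels' protocols. Kept here were barcodes of at least 500 genes with at most 20% of UMIs mitochondrial. Hashtags were called at the crossing of a 2-component Gaussian mixture on log10 counts. Barcodes with several hashtags (827 of 9193) were removed as doublets, and doublets within a line were left in. UMIs were summed per line and state and scaled to CPM. A pseudocount of 1 CPM was added before the log2 of single genes, so log2 ratios of low genes are understated. Medians and 1.5-fold calls rest on these values. Ratios given with an interval and log2 ratios of sums hold no pseudocount. No p-value was computed. The members and lists were chosen with earlier results of these data known. Named genes are the highest and lowest member of each subcomplex, the 3 highest and 3 lowest ratios of each comparison, members past 1.5-fold and the interferon-inducible genes. Other genes named (PSMC1, PSMC6, PSMD4, PSMD12 and pathway genes) were picked after their values were seen. Coordinates are from GENCODE 29 on GRCh38 by gene identifier. The code for intervals and fold calls was run on Poisson counts simulated from the summed cells. These counts hold no spread between cells or cultures, no hashtag calling and no state split, so those were not tested. Other settings were 2 scalings, a mean over cells, stricter cell filters, 50 CPM, a pseudocount of 5 CPM, non-cycling cells and a stricter state bound. Cells of at least 5000 UMIs and a sum without PSMA7 were added after seeing the data. Python 3.11.15, numpy 2.4.6, scipy 1.17.1 and scikit-learn 1.9.0 were used.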

Additional observations from a re-analysis of the deposited data

Results flagged for a closer look

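Several values moved in opposite directions between VIM-rich and KRT17-rich cells in the 2 knockouts, each beyond its own counting interval. With 1 sample per line the difference between the lines was not tested across samples. The ratio of VIM-rich to KRT17-rich cells for all members was 1.13 with EED lost and 0.915 with KMT2D lost. For the alpha ring it was 1.13 and 0.868, for the beta ring 1.03 and 0.894, and for the non-ATPases 1.15 and 0.921. The single genes were PSMA4 (1.14 and 0.88), PSMA7 (1.15 and 0.824), PSMB1 (1.07 and 0.868), PSMB2 (1.08 and 0.881), PSMD3 (1.13 and 0.863), PSMD6 (1.22 and 0.854) and PSMD13 (1.17 and 0.847). The share of all genes that moved in this way was not counted, so the length of this list says nothing particular to the members. The all-member value of C1-sgKMT2D depends on depth, since its cells of 6000 UMIs or more had 7706 CPM when KRT17-rich and 7783 CPM when VIM-rich. The ATPases do not belong to these values, since their ratio in C1-sgKMT2D was 0.999. The beta ring of C1-sgEED had a log2 ratio of -0.01 under median of ratios scaling.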

How the results depend on the processing

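Scaling to a total without mitochondrial and ribosomal protein genes gave these log2 ratios of the summed members: 0.25 for C1-sgEED over C1-sgControl and 0.18 for C1-sgKMT2D over C1-sgControl in all cells, 0.22 for the latter in KRT17-rich cells, 0.14 and -0.088 for VIM-rich over KRT17-rich cells of C1-sgEED and C1-sgKMT2D, and -0.20 for C1-sgKMT2D over C1-sgEED in VIM-rich cells. Median of ratios scaling gave 0.18 and 0.083 in all cells, 0.13 and 0.14 in KRT17-rich cells, 0.12 between the states of C1-sgEED and -0.23 between the knockouts. A mean over cells gave 0.33 for C1-sgEED in all cells, 0.25 and 0.19 in KRT17-rich cells, -0.19 between the states of C1-sgKMT2D and -0.41 between the knockouts. A mitochondrial limit of 10% gave 0.088 and 0.15 for C1-sgKMT2D in all and KRT17-rich cells and 0.15 between the states of C1-sgEED. Cells with no cycle gene UMI gave 0.23 and 0.0803 in all cells, 0.17 for C1-sgEED in KRT17-rich cells and -0.19 between the states of C1-sgKMT2D. Requiring 3 times more of KRT17 or VIM gave 0.22 and -0.17 between the states, 0.70 for the ATPases of C1-sgEED and -0.44 between the knockouts. Cells of at least 5000 UMIs, chosen after seeing the data, gave 0.21 for C1-sgEED in all cells, 0.15 and 0.14 in KRT17-rich cells, -0.046 between the states of C1-sgKMT2D, 0.52 for the ATPases of C1-sgEED and -0.24 between the knockouts. Without PSMA7, also added after seeing the data, the values were 0.30 and 0.23 for C1-sgEED in all and KRT17-rich cells and -0.097 between the states of C1-sgKMT2D. The summed members kept their direction in all 7 comparisons under each of these settings.

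The counts of members past 1.5-fold were small and moved. Shares over all genes are given above only for the main setting and, between the states, at 50 CPM. The counts under other settings thus have no share to be read against. For C1-sgEED over C1-sgControl in all cells the number higher was 0 under both scalings, under a pseudocount of 5 CPM and in cells of at least 5000 UMIs, 2 in cells with no cycle gene UMI and 5 (with 1 lower) by a mean over cells. In KRT17-rich cells it was 2 for C1-sgEED by a mean over cells. For C1-sgKMT2D there it was 0 under median of ratios scaling, the pseudocount of 5 CPM and at least 5000 UMIs (with 1 lower), and 2 with the stricter state bound and with no cycle gene UMI (with 1 lower). In all C1-sgKMT2D cells with no cycle gene UMI 1 was lower. Between the states the number lower was 0 in both knockouts at 50 CPM or at least 5000 UMIs and 2 with no cycle gene UMI, and the number higher in C1-sgKMT2D was 0 at 5000 UMIs. Between the knockouts 4 were lower under both scalings and 12 by a mean over cells. Of 56 subcomplex sums over the comparisons, 16 changed sign in at least 1 setting, 14 of them with an interval that includes 1. The other 2 were the beta ring between the states of C1-sgEED (-0.0093, median of ratios) and the core chaperones between the knockouts (0.028 without mitochondrial and ribosomal genes, 0.0031 by median of ratios and 0.024 with no cycle gene UMI). The causes were not tested. No paired analysis was possible because each line is 1 sample. Members under 50 CPM are limited by their counts.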

Other observations

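The 1934 cells of hashtag 2, which the labels tie to no line, also hold 580 KRT17-rich and 1319 VIM-rich cells. Their members summed to 7044 CPM in KRT17-rich and 7186 CPM in VIM-rich cells, a ratio of 1.02 (1.01 to 1.04). The ATPases were at 553 and 621 CPM, or 1.12 (1.07 to 1.18), and PSME1 at 121 and 178 CPM, or 1.47 (1.32 to 1.64). PSMB9 was at 22.8 and 38.7 CPM, a ratio of 1.70 (1.34 to 2.19). PSME4 was at 33.2 and 25.1 CPM, a ratio of 0.755 (0.599 to 0.953). The core chaperone PSMG2 was at 98.7 CPM over all cells of hashtag 2, and PSMA7 at 869.7 CPM. The lines are read in the same library, but no comparison with them was made.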
